A study of Mus musculus with 8 samples.

Results

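The flavin monooxygenases and cytosolic sulfotransferases examined here were 7 liver genes chosen by name, Fmo1, Fmo2, Fmo4, Fmo5, Sult1a1, Sult1b1 and Sult1d1. All 7 were found by symbol among the 11784 genes listed with a value for each mouse. The RNA was from livers of 8 C57BL/6J males, of which 4 ate the Control diet and 4 the Low AA diet, both defined in amino acids, with the Low AA diet giving a smaller share of calories as amino acids and a larger share as carbohydrate. Both groups began their diets at 9 weeks of age, stayed on them for 4 months, and were fasted overnight for about 16 hours before the livers were taken. The measurement was poly(A) RNA sequencing of whole liver, so that fewer cells of a type and less RNA per cell cannot be told apart. The question was whether the Low AA diet changed the expression of these enzymes.

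Flavin monooxygenases are membrane enzymes of the endoplasmic reticulum that carry a flavin cofactor, FAD, and use NADPH and oxygen to oxidise nitrogen and sulfur atoms in drugs and dietary amines. Cytosolic sulfotransferases move a sulfonate group from the donor PAPS onto phenols, steroids, catecholamines, thyroid hormones and bile acids, which makes them more soluble in water. PAPS is built from ATP and sulfate, and much of the sulfate in liver comes from the breakdown of cysteine. Both families are part of the liver's handling of foreign and endogenous small molecules.

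None of the 7 genes passed the threshold of an adjusted p under 0.05 in limma between the diets, where 0.399% of all 11784 genes did. Fmo4 and Fmo2 had the largest differences of the 7, both with a higher mean on the Low AA diet, at log2 differences of 0.35 and 0.74 (Low AA minus Control, the log2 fold change). These were also the only 2 of the 7 with an unadjusted p under 0.05, which 11.8% of all genes had. Fmo4 was the only 1 of the 7 whose values did not overlap between the diets. Over all genes, 6.81% did not overlap, and 3.26% did not overlap with the higher values on the Low AA diet, so 1 of 7 members is not read as a result about the group. Fmo1, Fmo5, Sult1a1, Sult1b1 and Sult1d1 had log2 differences between -0.03 and 0.04. The median log2 difference of the 7 was 0.03, beside 0.00 over all genes. Of the 7, 6 were above 0, but those near 0 changed sign when some mice were left out. The count is therefore not read as a common direction.

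The values are whole numbers that were treated here as read counts scaled between mice and rounded, called scaled read counts below, since their median hardly differed between mice while their totals did. How the authors made them is not stated. They summed to between 27876664 and 30799385 per mouse, with a median gene value between 433 and 449. Replicate mice were not copies of each other, since at most 0.942% of genes had the same value in any 2 mice. The label of liver was checked against markers, and all 7 hepatocyte markers were in the table, with Alb at 1321262 or above in every mouse. Marker sums of cholangiocytes, stellate cells and fibroblasts, endothelial cells, Kupffer cells and erythroid cells overlapped between the diets, and no gene on any marker list passed the threshold, though single markers such as Col1a1 did not overlap. Control mouse F2212 stood apart for the pancreatic acinar marker Cela1, with 36587 against 130 to 288 in the other 7 mice, and the other 7 acinar markers were not in the table. Diet differences of members and pairs that move without this mouse are given below with and without it. Shares and likeness between genes include it.

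The 4 flavin monooxygenase genes lie on 2 chromosomes. In GRCm38, the build of the processing notes (mm10), with GENCODE M21 as the annotation, Fmo4 occupies chromosome 1 from 162793188 to 162813972, Fmo1 from 162829561 to 162866610 and Fmo2 from 162874317 to 162898726, all on the minus strand. Fmo4 and Fmo1 are 15.6 kb apart, and Fmo1 and Fmo2 are 7.71 kb apart. Fmo5 lies on chromosome 3 from 97628804 to 97655282 on the plus strand. Sult1b1 and Sult1d1 are neighbours on chromosome 5, at 87513339 to 87538195 and 87554645 to 87569027, 16.4 kb apart and on the minus strand, with Sult1e1 next to them. Sult1a1 lies on chromosome 7 from 126672865 to 126676432 on the minus strand, and 61 of its bases overlap Sgf29 on the plus strand. The libraries were stranded, but whether the counting used strand is not given in the sources used here. No 100-base stretch of a transcript of Fmo2, Fmo4, Fmo5, Sult1b1 or Sult1d1 occurred in a transcript of another gene. For Fmo1 and Sult1a1, 2.37% and 1.75% of such stretches did, shared with Abhd2 and others outside both families for Fmo1 and with Gm6939 for Sult1a1.

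A sequence before a RefSeq transcript start of Fmo4 and one of Fmo2 are shown because these 2 genes of the cluster had the largest differences between diets, while Fmo1, which lies between them, had a log2 difference of 0.03. They are the 250 bases before that start in GRCm38.p6, read 5′ to 3′ on the minus strand, at chr1:162812550-162812799 for Fmo4 and chr1:162898494-162898743 for Fmo2. Capitals mark matches to the motifs searched.
Fmo4: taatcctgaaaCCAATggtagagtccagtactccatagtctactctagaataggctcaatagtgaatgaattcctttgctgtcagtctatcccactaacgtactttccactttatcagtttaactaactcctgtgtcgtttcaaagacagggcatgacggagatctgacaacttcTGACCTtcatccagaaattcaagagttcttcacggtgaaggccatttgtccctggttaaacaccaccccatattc
Fmo2: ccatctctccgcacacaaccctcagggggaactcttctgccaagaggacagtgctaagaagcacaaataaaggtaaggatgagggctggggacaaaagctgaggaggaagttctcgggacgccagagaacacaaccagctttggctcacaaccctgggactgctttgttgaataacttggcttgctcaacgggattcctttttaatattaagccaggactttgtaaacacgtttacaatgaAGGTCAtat
The motifs were searched on both strands and were the TATA box TATAAA, the CCAAT box, the Ahr core motif GCGTG, the nuclear receptor motif AGGTCA, the Nrf2 core motif TGACNNNGC and the STAT motif TTCNNNGAA. The Fmo4 window held CCAAT at -239 and AGGTCA on the opposite strand at -75, and the Fmo2 window held AGGTCA at -9, counted from the start to the first base of the match. AGGTCA is found in 14.0% of the 32851 RefSeq windows of this length and CCAAT in 33.8%. By the GENCODE M21 coordinates above, the Fmo4 window lies within the gene, and the Fmo2 window lies within it but for its first bases. RefSeq gives Fmo2 a further start, whose window at chr1:162898759-162899008 lies wholly upstream of the gene and held none of the motifs. The bases just after the start occurred in a GENCODE M21 transcript of the gene for the Fmo2 window shown, but not for the other Fmo2 window or that of Fmo4. A match describes letters in 1 window and is no site. RefSeq windows were matched for 6 of the 7 members, Fmo1 being the other.

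Fmo4 encodes a little studied member of the family and had the lowest level of the 7 genes. Its scaled read counts in the Low AA mice H1126, H828, H817 and H1315 were 224, 227, 225 and 198. In the Control mice F129, F2212, F7111 and F2110 they were 163, 162, 186 and 175. All 4 Low AA mice lay above all 4 Control mice, the nearest being Low AA mouse H1315 at 198 and Control mouse F7111 at 186. The means were 218.5 ± 13.7 in Low AA and 171.5 ± 11.3 in Control mice (mean ± SD of 4 mice, as for all means here), a log2 difference of 0.35 (SE 0.11, limma, adjusted p = 0.245). Its 95% interval ran from 0.10 to 0.60, without allowance for the number of genes tested. The exact permutation test gave p = 0.0286 (two-sided), the smallest that 4 mice against 4 allow. Without Control mouse F2212 the difference was 0.32 (limma, adjusted p = 0.319). Fmo4 had a small spread, with a standard deviation within diets of 0.09 on the log2 scale, lower than that of all but 5.87% of genes.

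Fmo2, the main flavin monooxygenase of the lung in many mammals, varied more. The Low AA mice H1126, H828, H817 and H1315 had 927, 967, 1223 and 843 scaled read counts. The Control mice F129, F2212, F7111 and F2110 had 666, 311, 671 and 862. The groups overlapped through a single pair of mice, Control mouse F2110 at 862 lying above Low AA mouse H1315 at 843, and Control mouse F2212 was far below the rest. The means were 990.0 ± 164 and 627.5 ± 230, a log2 difference of 0.74 (SE 0.27, 95% interval 0.14 to 1.34, limma, adjusted p = 0.31). The exact permutation test gave p = 0.0571 (two-sided). Without Control mouse F2212, the mouse with the high Cela1, the log2 difference of Fmo2 was 0.43 (limma, adjusted p = 0.267). The stellate cell and fibroblast markers summed to between 7914 and 9907 in the Low AA mice and between 7727 and 10143 in the Control mice, and their part in the Fmo2 values was not tested. At a within-diet standard deviation of 0.48 on the log2 scale, Fmo2 was more variable than 92.6% of genes.

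Fmo1, a broad-range flavin monooxygenase of liver and kidney, had 6118, 7080, 5805 and 6370 scaled read counts in the Low AA mice H1126, H828, H817 and H1315. The Control mice F129, F2212, F7111 and F2110 had 6536, 5548, 6660 and 6080. The groups lay over each other, with means of 6343 ± 543 and 6206 ± 505. The log2 difference was 0.03 with a 95% interval from -0.19 to 0.25 (limma, adjusted p = 0.941), which corresponds to folds between 0.875 and 1.19. Fmo1 thus had the narrowest interval of the 7 genes.

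Fmo5 encodes an atypical member of the family that inserts oxygen next to carbonyl groups, and it had the highest scaled read counts of the 7. They were 17312, 23831, 22259 and 18361 in the Low AA mice H1126, H828, H817 and H1315, and 18142, 17652, 25762 and 19869 in the Control mice F129, F2212, F7111 and F2110. The highest single value belonged to Control mouse F7111 and the lowest to Low AA mouse H1126, and the ranges overlapped over most of their length. The log2 difference was 0.01 (SE 0.15, 95% interval -0.33 to 0.35, limma, adjusted p = 0.989).

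**Figure D1:**
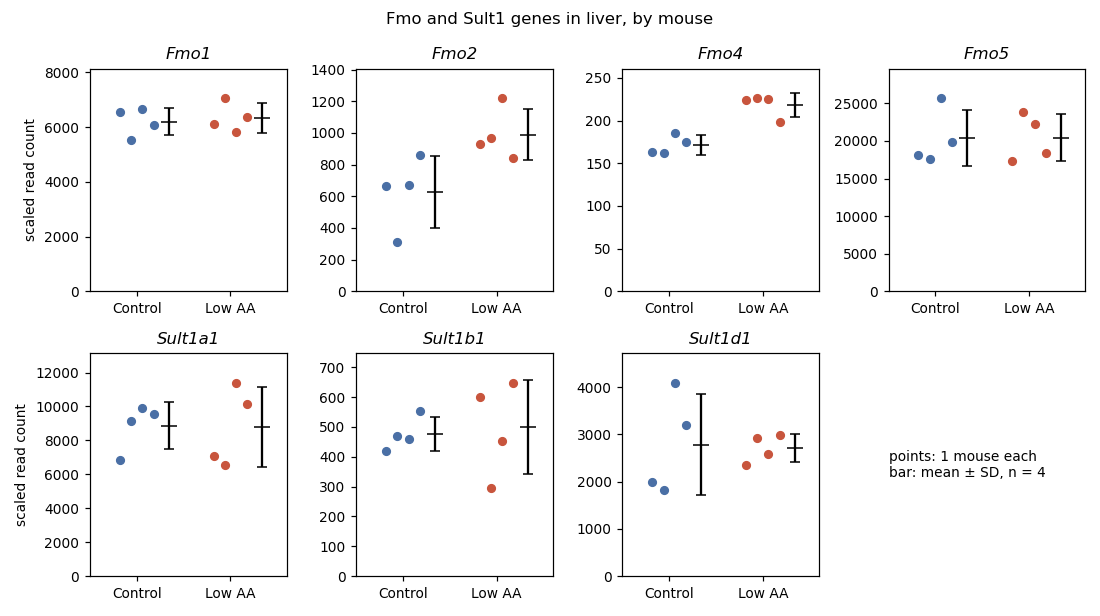
Scaled read counts (vertical axis, linear from 0, a scale of its own for each gene) of the 7 genes in each Control mouse and each Low AA mouse (horizontal axis), with the mean and SD of 4 mice beside the points. The 4 Low AA mice sit above the 4 Control mice for Fmo4 (198 to 227 against 162 to 186), and the groups overlap for the other 6 genes.

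Sult1a1, the main phenol sulfotransferase of liver, had 7103, 6564, 11412 and 10157 scaled read counts in the Low AA mice H1126, H828, H817 and H1315. The Control mice F129, F2212, F7111 and F2110 had 6826, 9158, 9926 and 9548. Low AA mice H1126 and H828 and Control mouse F129 formed the low end and Low AA mouse H817 the high end, so both diets held low and high mice. The means were 8809 ± 2348 and 8865 ± 1395, a log2 difference of -0.03 (SE 0.19, 95% interval -0.46 to 0.39, limma, adjusted p = 0.969).

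Sult1b1, which sulfates thyroid hormones and small phenols, had 600, 297, 454 and 649 scaled read counts in the Low AA mice H1126, H828, H817 and H1315. In the Control mice F129, F2212, F7111 and F2110 it had 418, 469, 461 and 555. The Low AA mice held both the lowest and the highest value, with a coefficient of variation of 31.7% against 12.1% in the Control mice, a difference in spread that was not tested. The log2 difference was 0.02 (SE 0.22, 95% interval -0.48 to 0.51, limma, adjusted p = 0.988).

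Sult1d1, a sulfotransferase of catecholamines and other amines, had 2347, 2914, 2591 and 2979 scaled read counts in the Low AA mice H1126, H828, H817 and H1315. The Control mice F129, F2212, F7111 and F2110 had 1997, 1821, 4096 and 3189. Here the Control mice enclosed the Low AA mice on both sides, with coefficients of variation of 38.5% and 10.9%. The log2 difference was 0.04 (SE 0.23, 95% interval -0.48 to 0.56, limma, adjusted p = 0.973). The intervals of the 3 sulfotransferases leave room for a change of up to 1.31-fold, 1.42-fold and 1.47-fold upward for Sult1a1, Sult1b1 and Sult1d1, and down to folds of 0.727, 0.719 and 0.717. Without Control mouse F2212 the log2 differences of Fmo1, Fmo5 and Sult1d1 were -0.02, -0.05 and -0.14, each turned in sign, and leaving out some of the other mice turned these signs too.

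The diet differences of neighbouring genes were compared within each mouse, in 4 pairs. The log2 ratio of Fmo4 to Fmo1 was -4.85 ± 0.15 in the Low AA mice and -5.17 ± 0.10 in the Control mice, higher in 4 of 4 Low AA mice than in any Control mouse. This difference of 0.32 had p = 0.0286 in the exact permutation test (two-sided) and p = 0.114 after adjustment over the 4 pairs. The log2 ratio of Fmo2 to Fmo1 differed by 0.70 (exact permutation test, two-sided, adjusted p = 0.171) and that of Fmo4 to Fmo2 by -0.39 (adjusted p = 0.343 in the exact permutation test). The log2 ratio of Sult1d1 to Sult1b1 differed by 0.02 (adjusted p = 0.943 in the exact permutation test). Without Control mouse F2212 the difference was 0.34 for Fmo4 to Fmo1 and 0.45 for Fmo2 to Fmo1. It was -0.11 for Fmo4 to Fmo2, and -0.15 for Sult1d1 to Sult1b1, which turned in sign. No pair passed, but with 4 mice a diet a single pair at the smallest possible p reaches no lower than 0.114 after this adjustment, so the test could hardly have passed and says little on whether neighbours differ.

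Levels were compared between genes per kb of exon in GENCODE M21. Sult1a1 had the highest median over the 8 mice, 6450 scaled read counts per kb, followed by Fmo5 at 3597, Fmo1 at 1834 and Sult1d1 at 1137. Fmo2 at 193, Sult1b1 at 167 and Fmo4 at 71.6 were lower. Ranges over the 8 mice overlapped between Sult1a1 and Fmo5, between Fmo1 and Sult1d1, and between Fmo2 and Sult1b1, and did not overlap between the other neighbours in this order. Of the summed level per kb of the 4 flavin monooxygenases, Fmo5 made up 63.7% ± 2.86 in the Low AA mice and 65.1% ± 3.06 in the Control mice. Fmo1 made up 31.2% ± 3.01 and 31.4% ± 2.81, Fmo2 3.74% ± 0.55 and 2.41% ± 0.84, and Fmo4 1.36% ± 0.14 and 1.10% ± 0.08. Sult1a1 held 81.8% ± 3.75 and 82.5% ± 3.62 of the sum of the 3 sulfotransferases. The genes with the larger differences between diets, Fmo2 and Fmo4, were therefore the minor ones of their family in liver.

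**Figure D2:**
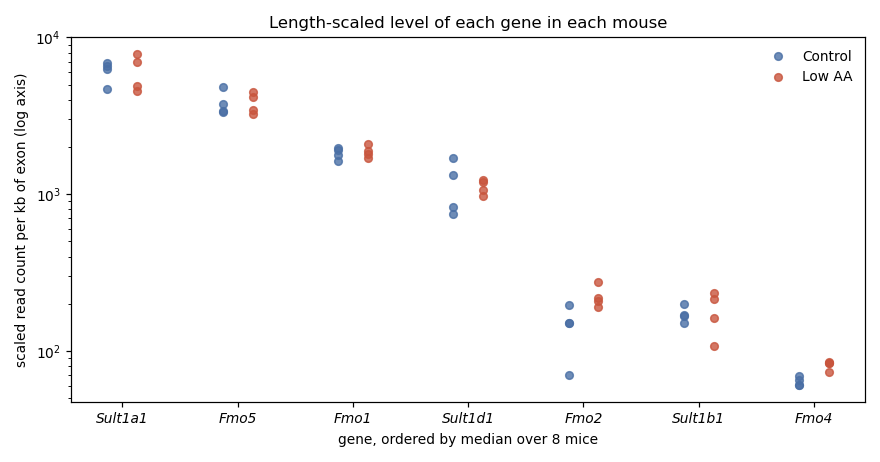
Scaled read count per kb of exon (vertical axis, log scale) of each gene in each of the 4 Control and 4 Low AA mice, with genes on the horizontal axis ordered by their median over the 8 mice. Sult1a1 and Fmo5 lie at the top with medians of 6450 and 3597, and Fmo4 lies at the bottom with 71.6.

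Of 20 cytosolic sulfotransferases listed, 7 were in the table, the 3 above and 4 others, and none of the 7 passed the threshold. Sult2a8, a bile acid sulfotransferase of mouse liver found under its older symbol 2810007J24Rik, averaged 22803 ± 2514 scaled read counts in Low AA and 24477 ± 1657 in Control mice, a log2 difference of -0.11 (limma, adjusted p = 0.78). Sult5a1 had 97.0 ± 24.9 and 153.5 ± 31.2, a log2 difference of -0.67 (SE 0.22, limma, adjusted p = 0.258), and its groups overlapped, with 65 to 125 and 113 to 189. Sult1c2 and Sult2a7 had log2 differences of 0.43 and 0.44 (limma, adjusted p = 0.723 and 0.567). Sult2a7 has close relatives, and how the counting shared reads among them is not known.

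**Figure D3:**
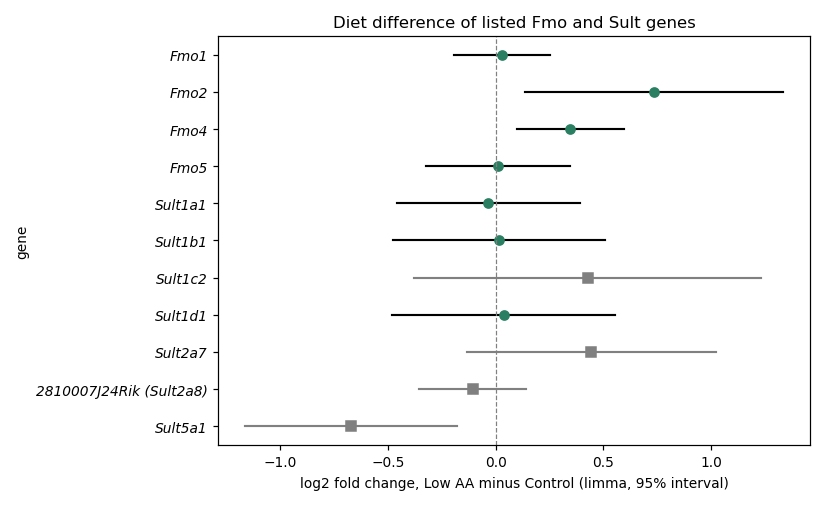
Log2 difference, Low AA minus Control (horizontal axis), with its 95% limma interval for each Fmo and Sult gene in the table (vertical axis), circles for the 7 genes described above and grey squares for the other 4. The intervals of Fmo2 (0.14 to 1.34) and Fmo4 (0.10 to 0.60) lie above 0 and that of Sult5a1 below it, but none of the genes passed an adjusted p under 0.05.

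The genes that supply and surround these enzymes were taken from 7 further lists, which with the 2 families hold 81 genes in the table beside the 7. Of these 81 genes, 1 passed the threshold, where 0.399% of all 11784 genes did. The values of 4 did not overlap between diets (4.94%), beside 6.81% of all genes, so this count is not read as a result about the lists. The gene that passed was Sulf2, 1 of 12 genes in the table from the list of sulfatases and sulfatase-modifying factors. Sulf2 encodes an extracellular enzyme that removes sulfate groups from heparan sulfate chains. Sulf2 had 431, 297, 430 and 299 scaled read counts in the Low AA mice H1126, H828, H817 and H1315, and 660, 707, 890 and 1024 in the Control mice F129, F2212, F7111 and F2110. It was lower in all 4 Low AA mice than in every Control mouse, with a log2 difference of -1.17 (SE 0.18, limma, adjusted p = 0.0308). The size of the difference varied little, between -1.27 and -1.06 with 1 mouse left out, but the call was close to the threshold. With each mouse omitted in turn it held in 2 of 8 fits, when F129 or F2212 was omitted, and was lost when any of the other 6 mice was, with limma adjusted p from 0.0316 to 0.083. It was also lost without a mean-variance trend (limma, adjusted p = 0.0556). Sumf1, which activates newly made sulfatases, had 778 to 832 scaled read counts in the Low AA mice and 666 to 758 in the Control mice, a log2 difference of 0.15 (limma, adjusted p = 0.581), without overlap. Some markers of other liver cells were also lower on the Low AA diet and some were higher, none passing the threshold. Among the 7 stellate cell and fibroblast markers, Col1a1 had 37 to 69 scaled read counts in the Low AA mice and 70 to 147 in the Control mice (log2 difference -1.07, limma, adjusted p = 0.148), and Col3a1 and Pdgfrb had log2 differences of -0.48 and -0.34. Of the same list, Des had -0.29, Dcn and Lrat had -0.02 and -0.03, and Reln had 0.16. Of the cholangiocyte markers, Sox9 and Krt19 had log2 differences of -1.05 and -0.87 (limma, adjusted p = 0.283 and 0.34), with sums over the 4 in the table of 826 to 1316 in the Low AA and 1124 to 2265 in the Control mice. All 6 Kupffer cell markers were above 0, with log2 differences from 0.19 for Clec4f to 0.61 for Marco. Endothelial markers ran from -0.04 for Lyve1 to 0.16 for Kdr. The part of these markers in the Sulf2 values was not tested. Sulf1, the relative of Sulf2, had a log2 difference of -0.40 (limma, adjusted p = 0.608). Sulf2 acts on sugar chains outside the cell and does not act on the small molecules that the cytosolic sulfotransferases modify.

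For the flavin cofactor, 4 genes of FAD synthesis and riboflavin uptake were in the table, and none passed the threshold. Slc52a2, a riboflavin transporter of the plasma membrane, had 499, 456, 448 and 390 scaled read counts in the Low AA mice H1126, H828, H817 and H1315, and 354, 312, 316 and 357 in the Control mice F129, F2212, F7111 and F2110. These groups did not overlap, with a log2 difference of 0.42 (SE 0.11, limma, adjusted p = 0.157). Slc25a32, a mitochondrial carrier linked to folate and FAD, had a log2 difference of 0.53 (limma, adjusted p = 0.302), with 821 to 1321 in the Low AA mice and 499 to 868 in the Control mice. The median log2 difference of the 4 genes was 0.31, with 3 above 0.

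For the reducing cofactor, none of the 10 genes of NADPH supply and microsomal electron transfer passed, and their median log2 difference was 0.01. G6pdx, the first enzyme of the pentose phosphate pathway, had 149 to 195 scaled read counts in the Low AA mice and 116 to 131 in the Control mice. These groups did not overlap, with a log2 difference of 0.38 (limma, adjusted p = 0.284).

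For the sulfonate donor, none of the 8 genes of PAPS synthesis and turnover passed, with a median log2 difference of -0.04. Papss2, the PAPS synthase with the higher values in these livers, averaged 4311 ± 499 scaled read counts in Low AA and 3628 ± 1101 in Control mice, a log2 difference of 0.29 (limma, adjusted p = 0.621). Papss1 had 151.0 ± 24.7 and 189.5 ± 30.3, a log2 difference of -0.33 (limma, adjusted p = 0.468). The 2 synthases lay on opposite sides of 0, and neither passed the threshold.

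For the sulfate itself, 11 genes of cysteine synthesis, cysteine breakdown and sulfide oxidation were listed, all in the table, and none passed. Their median log2 difference was -0.02. Cdo1, which opens cysteine breakdown by oxidising it, had 49476 ± 6218 and 47037 ± 3243 scaled read counts, a log2 difference of 0.07 (limma, adjusted p = 0.885). The smallest adjusted p of this list was that of Cbs, which feeds homocysteine into cysteine synthesis, with a log2 difference of 0.23 (limma, adjusted p = 0.471). Among 14 sulfotransferases of the Golgi in the table, which use the same donor for proteins and sugar chains, none passed, and Tpst1 had the smallest adjusted p, 0.538 in limma, with a log2 difference of -0.22.

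Of 18 regulators listed for these genes, nuclear receptors and other transcription factors of the liver, all were in the table and none passed. Their log2 differences ran from -0.35 to 0.31 with a median of 0.09. Nr1i2 and Nr1i3, which encode the xenobiotic receptors PXR and CAR, had log2 differences of 0.18 each (limma, adjusted p = 0.734 and 0.696). The smallest adjusted p was that of Stat5b, a mediator of growth hormone signals, with a log2 difference of 0.24 (limma, adjusted p = 0.496).

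**Figure D4:**
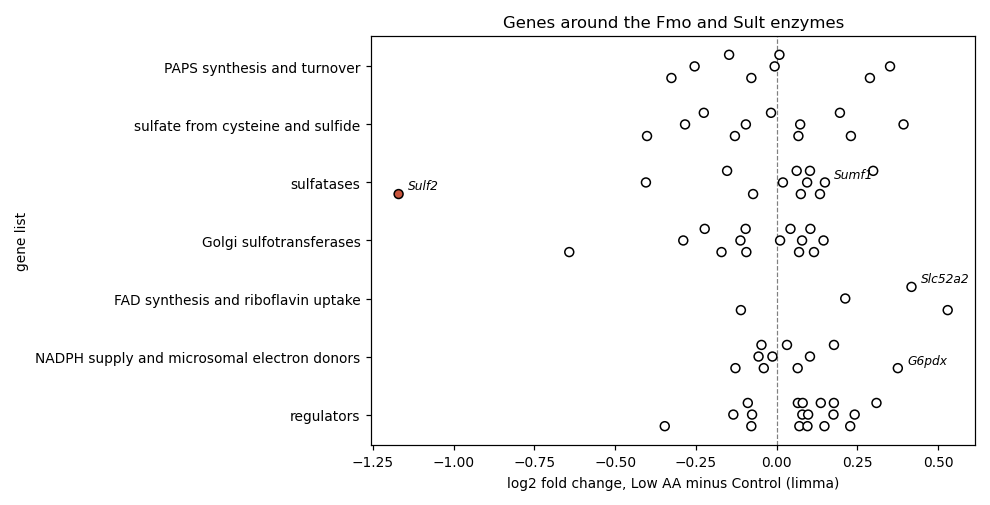
Log2 difference, Low AA minus Control (horizontal axis), of each gene in the table from the 7 further lists (vertical axis), 1 circle a gene. Sulf2, filled, at -1.17 is the gene with an adjusted p under 0.05, and the names mark the 4 genes whose values did not overlap between diets.

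Likeness between genes was measured as Pearson's r of log2 values over the 8 mice after the mean of each diet had been subtracted, and is a description only, since the mice share their diet means and scaling. Between members, the highest r were 0.74 for Fmo4 with Fmo5 and for Fmo5 with Sult1d1, and the lowest was -0.55 for Fmo5 with Sult1b1. Cluster neighbours were not especially alike, with r of 0.36 for Fmo1 with Fmo2, 0.29 for Fmo1 with Fmo4, 0.52 for Fmo2 with Fmo4 and 0.05 for Sult1b1 with Sult1d1. Over all genes, those most like Fmo1 were Klc2, Fam122b and Tle1, at r of 0.97 to 0.99. For Fmo2 they were Sf3a1, Mtap7 and Mdc1, and for Fmo4 Naa50, Chd3 and Mdn1, all at 0.98. For Fmo5 they were Eif5, Ttll8 and Mtf1, at 0.979 to 0.995. For Sult1a1 they were 2310057M21Rik, Id2 and Rad9b, at 0.94 to 0.99, for Sult1b1 Egf, Tmem18 and Ddx24, at 0.98 to 0.99, and for Sult1d1 Nacc1, Aldh5a1 and Prr12, at 0.98 to 0.99. An r over 0.9 was shared with between 11 genes, for Sult1a1, and 198 genes, for Fmo4, out of 11784 searched over 8 mice.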

How the data were processed

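Liver RNA was extracted with Trireagent and made into stranded poly(A) libraries. Processing notes name bcl2fastq 1.8.2, STAR 2.5.0a, RSEM 1.2.6, edgeR 3.10.5, R 3.2.1 and build mm10, without their roles. For each gene and mouse the authors deposited a score, a whole number treated here as a read count scaled between mice and rounded. How it was made is not given in the sources used here. Every gene had at least 28 in 3 mice, so low genes had been removed before deposit. The authors' own fold change and FDR columns were left aside. Since the values did not look like raw counts, no count model or counting interval was used, and totals are not exact depths.

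For each gene, log2(value + 1) was fitted in limma 3.58.1 (R 4.3.3), 4 Low AA against 4 Control mice, with the prior variance following mean expression. P values were adjusted by Benjamini-Hochberg over all 11784 genes, with a threshold of 0.05. This scale understates the changes of low genes. All 7 members had a mean of at least 100. Exact permutation tests used scipy 1.17.1, and figures matplotlib 3.10.9. The script was tested on simulated data. Members and lists were chosen with earlier results of these data known. Named genes were the members, the other family genes in the table, listed genes that passed or had the smallest adjusted p of their list or no overlap between diets, and the 3 genes most like each member. Papss2, Cdo1, Sulf1, Slc25a32, Nr1i2 and Nr1i3 were added to these with their values known. Alternatives were pseudocounts of 0.1 and 5, a minimum mean of 100, equal totals, median-ratio rescaling, no trend, robust moderation, and each mouse left out in turn. A further family gene is not reported here.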

Additional observations from a re-analysis of the deposited data

Results flagged for a closer look

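The 7 members and Sulf2 were screened on each diet for a mouse at a distance from the other 3. Of these 16 sets, 1 stood out, and chance gives about 1 in 20. Low AA mouse H1315 was below the other Low AA mice for Fmo4, with a gap over range of 0.903 on the log2 scale, where the other 3 were nearly equal at 224 to 227 scaled read counts and H1315 was at 198. It still lay above every Control mouse, and without it the log2 fold change of Fmo4 was 0.39 (limma adjusted p = 0.223).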

How the results depend on the processing

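None of the 7 members passed the threshold in any of the 15 alternatives, and under the 7 that keep all 8 mice each member kept its direction. The adjusted p of Fmo4 ran from 0.211 to 0.553 and that of Fmo2 from 0.231 to 0.67. With 1 mouse left out in turn, the log2 fold change of Fmo2 ran from 0.43, without Control mouse F2212, to 0.92 and that of Fmo4 from 0.32 to 0.39. The members near 0 changed sign with the mouse left out, Fmo1 from -0.023 to 0.073, Fmo5 from -0.068 to 0.13, Sult1a1 from -0.17 to 0.10, Sult1b1 from -0.13 to 0.25 and Sult1d1 from -0.14 to 0.25, and so did the ratio of Sult1d1 to Sult1b1, from -0.25 to 0.25. The other 3 ratios kept their direction, and with 7 mice the smallest two-sided p of the exact permutation test is 0.0571, so those fits could not pass. The number of genes called among all was 28 with a minimum mean of 100 and 30 without trend, and between 16 and 77 with 1 mouse left out, with 21, 19, 16, 29 and 77 without H1126, H828, H817, F129 and F2212. Of the sulfatases, 0 were called without trend, where Sulf2 had an adjusted p of 0.0556, and 0 to 1 with 1 mouse left out. Genes without overlap between diets numbered 940 to 1494 with 1 mouse left out, since fewer mice overlap less often. No paired analysis was made, since each mouse ate 1 diet and no pairing of mice is given.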
